A study of Mus musculus with 8 samples.

Results

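The SR and hnRNP splicing regulators are a set of 33 protein-coding genes, taken from the 49315 genes of the count files by symbol: every Srsf gene, Tra2a and Tra2b (13 genes, called the SR family here) and every Hnrnp gene (20 genes). The name rule also met 2 processed pseudogenes, which were left out because they are not protein coding. RNA was taken from OT-I CD8 T cells, cytotoxic cells of a mouse line whose transgenic T cell receptor recognises an ovalbumin peptide. There were 4 Control KO libraries, edited with a crRNA against the bacterial gene LacZ, and 4 Carm1 KO libraries, edited with a crRNA against Carm1, a coactivator of transcription that methylates arginines. The labels give the Control KO genotype also as WT and the cells of both groups as CD45.1. In both groups naive CD8 T cells, purified from spleen and inguinal lymph node, were nucleofected for Cas9 editing, were cultured with the cytokines interleukin-7 (2.5 ng/ml) and interleukin-15 (50 ng/ml), and gave RNA 7 days after editing. The labels report loss of Carm1 protein by western blot. The age, sex and number of the mice and the crRNA sequences were not given in the sources used here. As the labels call the 4 libraries of a group technical replicates, every p-value measures only the spread between libraries, and the effect of the edit and other differences between the 2 preparations cannot be told apart. The series text, unlike the sample protocols, describes co-culture of both groups with B16F10 melanoma cells expressing ovalbumin.

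SR proteins bind exonic enhancer sequences through RNA recognition motifs and recruit the spliceosome through a tail rich in arginine and serine, which SR protein kinases phosphorylate. The hnRNP proteins coat nascent transcripts, often repress nearby splice sites, and also act in mRNA stability and export. Many genes of both families carry alternative segments whose inclusion sends the RNA to nonsense-mediated decay, so RNA and protein need not move together. T cells change the splicing of many transcripts on activation, and Hnrnpll is known for exon skipping in the CD45 gene of activated and memory T cells. Arginine methyltransferases, CARM1 among them, methylate several splicing proteins. The counts here are per gene and hold no measure of splicing, of isoforms or of protein.

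Depth was 38768760 to 41439998 counts for Control KO and 37556330 to 39988442 counts for Carm1 KO libraries. Levels are CPM, read counts relative to library size as adjusted by TMM factors, and fold changes are Carm1 KO against Control KO with the standard error (SE) of the log2 value. Carm1 itself was at 94.4 to 96.9 CPM in the Control KO and 32.1 to 33.2 CPM in the Carm1 KO libraries (log2 fold change -1.55, SE 0.027, edgeR quasi-likelihood test, adjusted p = 1.6e-37). Of 14970 genes tested, 87.7% passed an adjusted p of 0.05 and 83.4% did not overlap between the groups, so a difference of this kind was common. The higher genes made up 50.8% of those called with TMM factors. Upper-quartile factors shifted the median log2 fold change over all genes by 0.215 and gave 61.0% higher. The labelled cell type was borne out by its markers: 8 T cell genes summed to 4736 to 4848 CPM in the Control KO and 6450.0 to 6650.0 CPM in the Carm1 KO libraries, Cd8a and Cd8b1 among them. Of the 8, 6 were higher and 2 lower, Cd2 (from 386.5 to 281.9 CPM) and Lck (from 835.7 to 776.5 CPM). Markers of other cells moved in the same libraries. The 10 myeloid markers, Lyz2 and Fcer1g among them, were all lower and summed to 124 to 129 CPM against 6.03 to 7.25 CPM. The 8 B cell markers summed to 274 to 281 CPM against 931 to 957 CPM, most of it Ighm. Of the 4 tested, Ighm, Cd79b and Cd79a were higher and Igkc was lower, with Ms4a1, Pax5 and Cd22 among those too low to test. The 5 NK and CD4 T cell markers summed to 7.23 to 7.998 CPM against 6.95 to 8.16 CPM, a sum that hides opposite movements. The NK markers Ncr1 and Klrb1c fell 3.79-fold and 2.02-fold. Cd4, Cd40lg and Foxp3 rose 4.62-fold, 1.41-fold and 1.31-fold, Cd4 from 0.168 to 0.782 CPM. The melanocyte genes Tyr, Tyrp1, Dct and Sox10 had 0 counts in every library, and of the 8 melanocyte markers Pmel and Mitf were tested and higher (summed level of the 8: 4.05 to 4.31 CPM against 13.8 to 15.1 CPM). The part of these other cells in the results below was not tested, and in bulk RNA fewer cells with a transcript and less RNA per cell cannot be told apart.

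RNA of most SR and hnRNP genes was lower in the Carm1 KO libraries. All 33 genes were tested and all 33 passed, 28 lower and 5 higher (26 and 6 with upper-quartile factors), beside 43.2% of all genes tested that were lower and 44.5% that were higher. At least 2-fold falls were found for 12 of the 33 genes (36.4%) and for 15.2% of all genes tested. No gene of the 33 rose 2-fold, against 20.5% of all genes. The groups did not overlap for any of the 33 genes, against 83.4% of all genes tested. The median log2 fold change was -0.90 for the 33 genes, -0.96 for the 13 SR genes and -0.84 for the 20 hnRNP genes, and 0.02 for all genes tested. Abundant genes leaned lower in general: of 4292 genes with a mean of at least 50 CPM, 60.4% were lower (median -0.24). Of the 30 such SR and hnRNP genes 27 were lower (90.0%, median -0.92). Among the 4292 genes 314 rose 2-fold, 755 fell 2-fold (17.6%) and 3948 did not overlap between the groups. Of the 30, 0 rose 2-fold, 12 fell 2-fold and 30 did not overlap. Beside genes of like abundance, the lack of 2-fold rises and of overlap was thus less unusual than beside all genes tested. Falls of at least 4-fold were found for 2 of the 33, Srsf7 and Hnrnpd, a share near the 5.04% of all genes tested. These counts rest on the scaling. At the mildest alternative the log2 fold changes of Srsf7 and Hnrnpd were -1.93 and -1.85, short of 4-fold. Those of Hnrnpa2b1, Srsf10, Hnrnpf and Tra2a, among the 12 genes, were -0.99, -0.98, -0.83 and -0.79, short of 2-fold. In the other direction, the highest alternative for Srsf5 was a log2 fold change of 1.035, past 2-fold, so the lack of 2-fold rises rests on the scaling too. Together the 33 genes held 1.35% to 1.36% of all counts in the Control KO and 0.815% to 0.827% in the Carm1 KO libraries. SR genes held 0.317% to 0.321% against 0.210% to 0.213%, and hnRNP genes 1.03% to 1.04% against 0.604% to 0.617%. These sums were not tested.

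**Figure D1:**
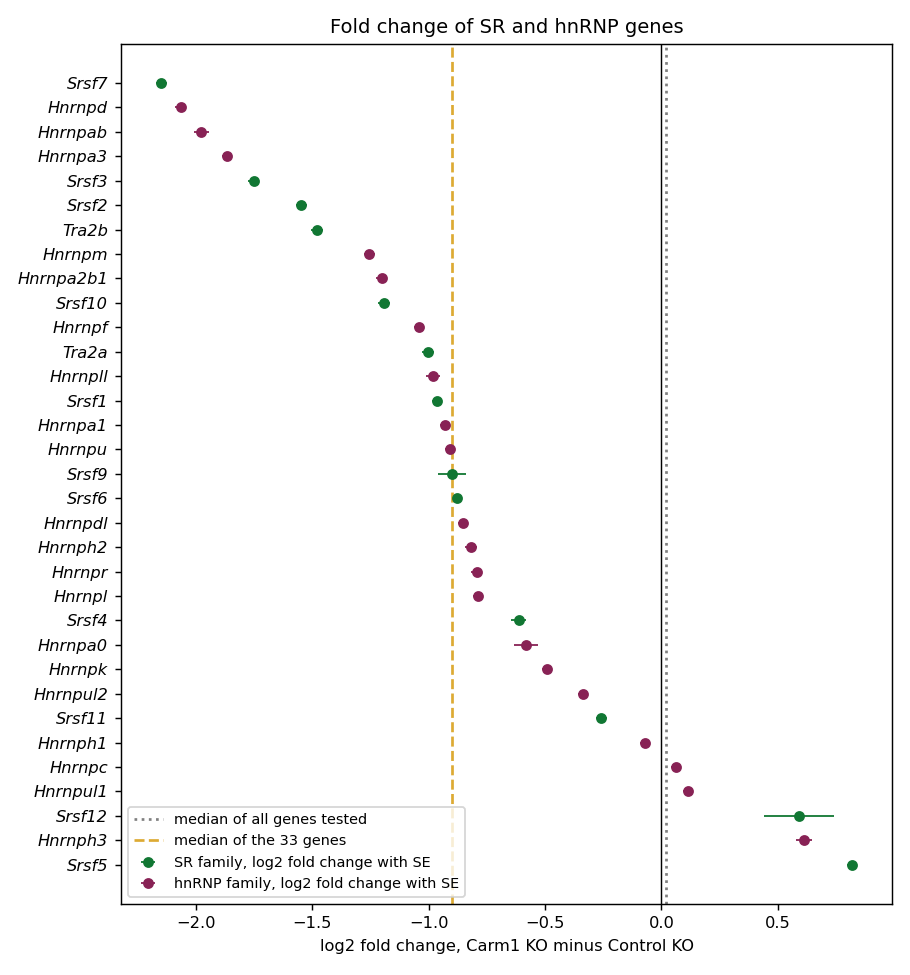
Log2 fold change of each of the 33 genes (x axis, Carm1 KO minus Control KO) with its SE from the edgeR fit, by family, with the median of the 33 genes and of all genes tested as vertical lines. The genes run from -2.15 for Srsf7 to 0.82 for Srsf5, and 28 of 33 lie below 0.

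The promoter windows of the genes at the ends of the order, Srsf7 and Hnrnpd (the largest falls of each family) and Srsf5 (the largest rise), are printed so that their sequence can be read beside the values of these genes. Each runs from 250 bases before to 50 bases after the gene's start, 5′ to 3′ on the gene's strand, from RefSeq on GRCm38.p6. Capitals mark the letters CCGGAAG (the core bound by ETS factors), GCGCATGCG (nuclear respiratory factor 1), CACGTG (E-box, bound by MYC and related factors) and TGACGTCA (cyclic AMP response element), on either strand. The windows are chr17:80207256-80207555, minus strand for Srsf7, chr5:99978889-99979188, minus strand for Hnrnpd and chr12:80945249-80945548, plus strand for Srsf5.
Srsf7: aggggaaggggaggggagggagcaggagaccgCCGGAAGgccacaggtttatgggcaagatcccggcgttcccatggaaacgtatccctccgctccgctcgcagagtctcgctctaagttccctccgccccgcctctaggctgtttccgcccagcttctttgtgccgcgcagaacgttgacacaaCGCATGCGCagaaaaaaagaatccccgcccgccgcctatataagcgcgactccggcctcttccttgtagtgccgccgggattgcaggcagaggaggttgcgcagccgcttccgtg
Hnrnpd: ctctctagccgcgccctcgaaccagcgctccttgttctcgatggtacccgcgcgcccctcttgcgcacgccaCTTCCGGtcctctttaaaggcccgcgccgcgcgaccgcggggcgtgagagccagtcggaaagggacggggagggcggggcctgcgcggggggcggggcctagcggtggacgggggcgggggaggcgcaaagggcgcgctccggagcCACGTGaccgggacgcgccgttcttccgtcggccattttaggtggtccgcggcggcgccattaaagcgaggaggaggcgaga
Srsf5: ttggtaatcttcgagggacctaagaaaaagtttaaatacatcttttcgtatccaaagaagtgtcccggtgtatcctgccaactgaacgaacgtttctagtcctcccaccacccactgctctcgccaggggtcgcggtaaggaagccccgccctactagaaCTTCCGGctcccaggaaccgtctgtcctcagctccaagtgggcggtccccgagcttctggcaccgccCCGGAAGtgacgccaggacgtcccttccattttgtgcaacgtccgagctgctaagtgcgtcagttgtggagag
The Srsf7 window holds 1 ETS and 1 nuclear respiratory factor match, the Hnrnpd window 1 ETS match and 1 E-box, and the Srsf5 window 2 ETS matches. Windows were found for 31 of the 33 genes, not for Hnrnpll and Hnrnpul2, and a gene with several windows was counted once if any held the motif. The E-box was present for 5 of 31 genes (16.1%: Hnrnpa3, Hnrnpd, Hnrnpf, Hnrnph2 and Hnrnpm), against 11.6% of the 10289 tested genes with a window and 7.15% of all 32851 windows. All 5 were lower, as were 26 of the 31 genes. CCGGAAG was present for 6 (19.4%, against 20.4% of tested genes and 8.86% of all windows), GCGCATGCG for 3 (9.68%, 4.08% and 1.75%) and TGACGTCA for 1, Tra2a (3.23%, 3.61% and 1.79%). CCAAT was present for 18 (58.1%, 42.8% and 37.4%) and TATAAA for 4, Hnrnpab, Hnrnpm, Srsf2 and Srsf3 (12.9%, 8.68% and 13.6%). The genes with GCGCATGCG, TGACGTCA or TATAAA were likewise all lower. No 2 matches overlap within the 3 printed windows. A match describes these letters only.

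The largest falls among SR genes were in Srsf7 and Srsf3, which encode the pair of small, closely related SR proteins that also act as adaptors for mRNA export. Srsf7 (ENSMUSG00000024097, chromosome 17, 80200089 to 80207305, minus strand, mm10) was at 301, 309, 302 and 301 CPM in the Control KO libraries and 71.0, 66.8, 68.3 and 67.5 CPM in the Carm1 KO libraries. It fell 4.43-fold (log2 fold change -2.15, SE 0.024, adjusted p = 3.0e-44). No other of the 33 genes had a larger fold change. Srsf3 (ENSMUSG00000071172, chromosome 17, 29032673 to 29043366, plus strand) was at 476, 485, 477 and 469 CPM in the Control KO libraries and 146, 139, 137 and 145 CPM in the Carm1 KO libraries, a 3.37-fold fall (log2 fold change -1.75, SE 0.024, adjusted p = 1.1e-41). In both genes the spread within a group was small beside the gap between the groups.

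Srsf2, a nuclear speckle protein that binds exonic enhancers, stood at 444, 442, 449.5 and 461 CPM in the Control KO libraries and 159.7, 152, 149 and 154 CPM in the Carm1 KO libraries. It fell 2.92-fold (log2 fold change -1.55, SE 0.024, adjusted p = 9.0e-40). In Srsf2 25.3% of exon sequence overlaps other genes, chiefly Mettl23 on the opposite strand (23330 counts over all libraries, against 92348 for Srsf2). How shared reads were counted was not given in the sources used here. Tra2b, an SR-like protein that binds purine-rich enhancers, was at 252, 255, 251 and 244 CPM in the Control KO libraries and 89.4, 86.4, 91.0 and 92.9 CPM in the Carm1 KO libraries (log2 fold change -1.48, SE 0.025, adjusted p = 2.0e-38). Its relative Tra2a fell less, 2.00-fold, from 106 ± 1.30 to 52.8 ± 1.68 CPM. For both Tra2 genes the lowest Control KO library stood well above the highest Carm1 KO library.

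Srsf10, an SR-like protein that turns into a splicing repressor when dephosphorylated, was at 196, 189, 192 and 186 CPM in the Control KO libraries and 83.2, 81.7, 82.3 and 87.1 CPM in the Carm1 KO libraries, and fell 2.28-fold (log2 fold change -1.19, SE 0.025, adjusted p = 1.3e-34). Srsf1, the founding SR protein, was at 507, 509.5, 498 and 496 CPM in the Control KO libraries and 256, 257, 260.2 and 259 CPM in the Carm1 KO libraries (log2 fold change -0.96, SE 0.021, adjusted p = 5.5e-34). Every Carm1 KO library stood well below every Control KO library for both genes. The nearest relative of Srsf1, Srsf9, was noisier, at 80.5, 84.8, 88.5 and 91.4 CPM in the Control KO libraries and 51.6, 45.9, 44.2 and 43.3 CPM in the Carm1 KO libraries, and fell 1.86-fold (log2 fold change -0.90, SE 0.06, adjusted p = 5.4e-07). Within the Control KO group Srsf9 varied by 5.47% (SD over mean), more than every other of the 33 genes except Srsf12, and within the Carm1 KO group it varied the most of all 33. Srsf6, which has a pair of RNA recognition motifs like Srsf4 and Srsf5, was at 355, 357, 356 and 349 CPM in the Control KO libraries and 195, 189.8, 190.5 and 194 CPM in the Carm1 KO libraries (log2 fold change -0.88, SE 0.022, adjusted p = 1.9e-32). Srsf4 fell 1.53-fold, from 50.1 ± 0.983 to 32.8 ± 1.19 CPM, and 43.0% of its exon sequence overlaps another gene. Srsf11, a larger arginine and serine-rich protein, changed little, from 200.4 ± 1.67 to 168 ± 4.29 CPM (log2 fold change -0.26, SE 0.023, adjusted p = 1.6e-13), and with upper-quartile factors it was not called (adjusted p = 0.071, the 17 alternatives ranging from 7.0e-29 to 1.0).

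Srsf5 and Srsf12 were the SR genes that rose. Srsf5 (ENSMUSG00000021134, chromosome 12, 80945504 to 80950507, plus strand), which encodes a shuttling SR protein with a pair of RNA recognition motifs, was at 398, 403, 394 and 403 CPM in the Control KO libraries and 703, 706, 691 and 719 CPM in the Carm1 KO libraries. Every Carm1 KO library lay far above every Control KO library, a 1.76-fold rise (log2 fold change 0.82, SE 0.021, adjusted p = 1.9e-31). Srsf12, a relative of Srsf10, was the least abundant of the 33 genes, at 1.06, 1.20, 0.923 and 0.874 CPM in the Control KO libraries and 1.55, 1.51, 1.48 and 1.58 CPM in the Carm1 KO libraries, which came from 32 to 65 counts in a library. It rose 1.51-fold (log2 fold change 0.59, SE 0.15, adjusted p = 4.6e-04).

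**Figure D2:**
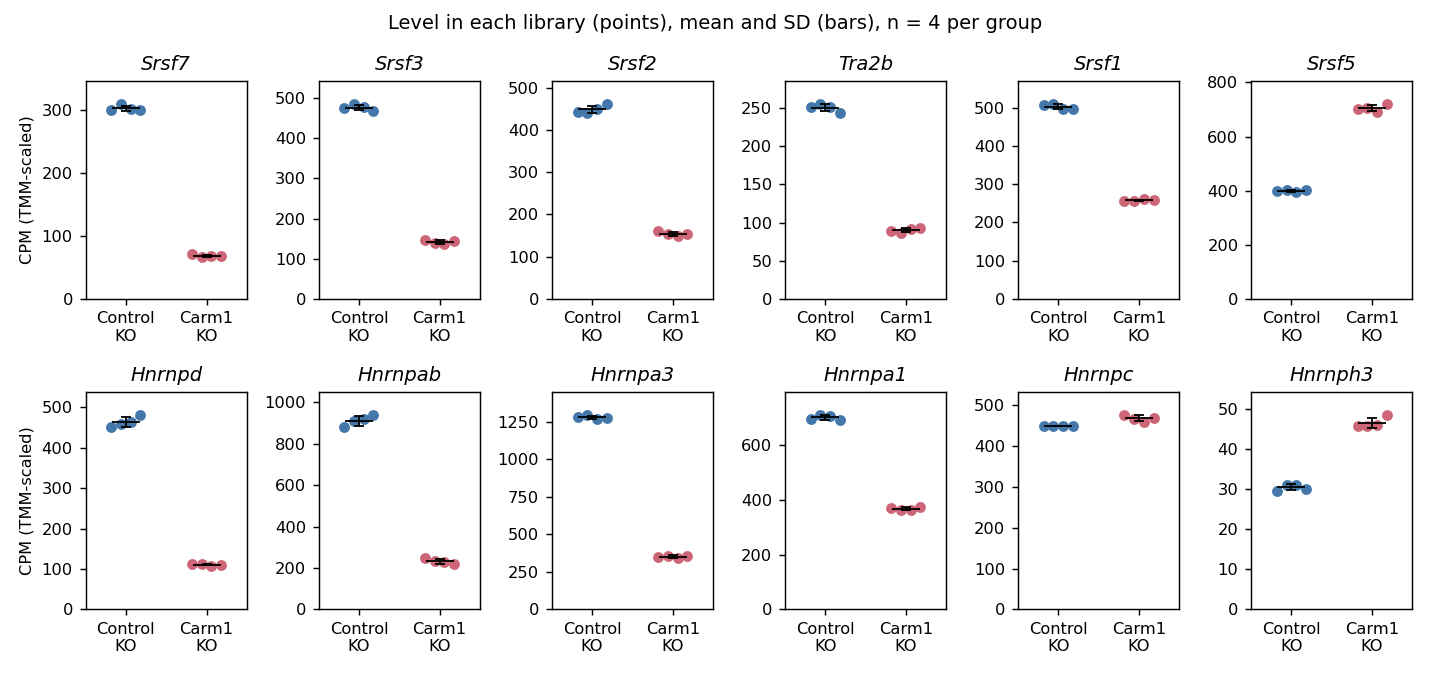
CPM in each library for 6 SR genes (upper panels) and 6 hnRNP genes (lower panels), with points for the 4 libraries of each group and bars for mean and SD. The groups stand apart in every panel, narrowly in Hnrnpc, and Srsf5, Hnrnpc and Hnrnph3 are the panels with the higher Carm1 KO points.

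These opposite movements changed the make-up of SR family RNA. On the per-length scale (CPM divided by the exon length in kilobases, RPKM), Srsf5 made up 12.3%, 12.3%, 12.1% and 12.3% of the summed SR level in the Control KO libraries. In the Carm1 KO libraries it made up 37.3%, 38.4%, 37.8% and 38.4%. In the Control KO group Srsf2 and Srsf7 had larger shares, and in the Carm1 KO group Srsf5 was first of the 13 SR genes. The share of Srsf7 went from 16.2% ± 0.167 to 6.45% ± 0.142, that of Srsf2 from 18.5% ± 0.371 to 11.2% ± 0.187 and that of Srsf3 from 11.4% ± 0.141 to 5.96% ± 0.0997 (SD, n = 4 each). Srsf6 held 8.99% ± 0.0976 and 8.60% ± 0.0425, so its share moved little while its level fell. The exon lengths in the files include rarely used exons. With the median length of annotated coding transcripts instead, an alternative added after the data were seen, Srsf5 made up 16.2% and 44.8%, and Srsf7 11.1% and 3.91%. Shares within a library do not depend on the scaling between libraries.

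**Figure D3:**
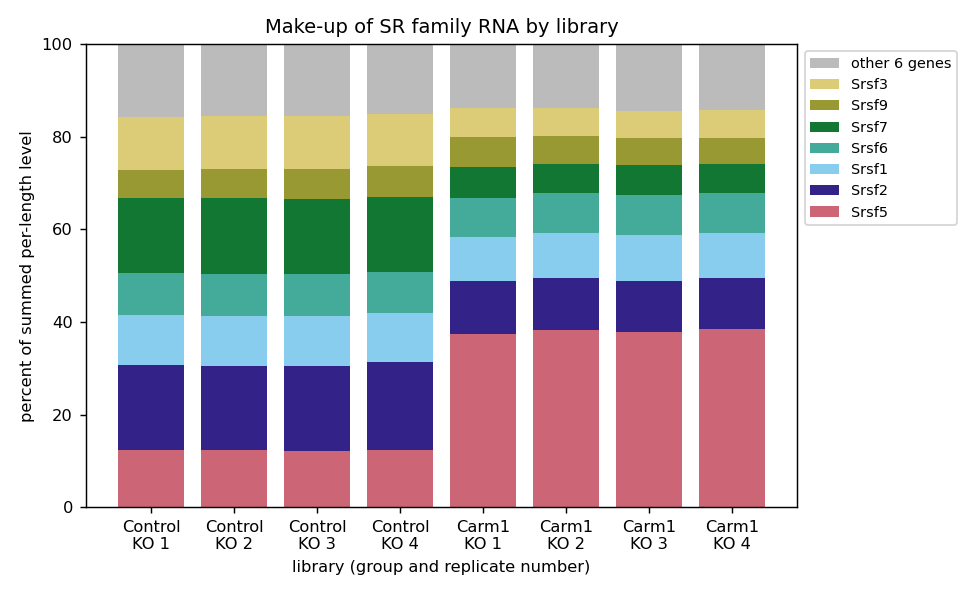
Share of each SR gene in the summed per-length level of the 13 SR genes (y axis, percent) in each of the 8 libraries, with the 6 genes of smallest share pooled. Srsf5 takes 12.1% to 12.3% of the Control KO and 37.3% to 38.4% of the Carm1 KO bars.

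Among hnRNP genes the largest falls were in Hnrnpd, Hnrnpab and Hnrnpa3. Hnrnpd (ENSMUSG00000000568, chromosome 5, 99955935 to 99978938, minus strand) encodes AUF1, a protein that binds AU-rich elements and promotes mRNA decay, and was at 452, 458, 463 and 481 CPM in the Control KO libraries and 112, 112, 109 and 110.4 CPM in the Carm1 KO libraries. It fell 4.18-fold (log2 fold change -2.06, SE 0.024, adjusted p = 4.3e-44). Hnrnpab, a close relative of Hnrnpd, was at 878, 909, 918 and 938 CPM in the Control KO libraries and 248, 232, 227 and 218 CPM in the Carm1 KO libraries (log2 fold change -1.98, SE 0.032, adjusted p = 1.7e-22), and 29.1% of its exon sequence overlaps Phykpl on the opposite strand (5477 counts over all libraries). Hnrnpa3, of the hnRNP A/B group, was at 1282, 1296, 1272 and 1279 CPM in the Control KO libraries and 349.9, 359, 339.6 and 358 CPM in the Carm1 KO libraries, a 3.65-fold fall (log2 fold change -1.87, SE 0.022, adjusted p = 1.7e-43). For these genes all 4 Carm1 KO libraries lay far below the lowest Control KO library.

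The other members of the hnRNP A/B group fell less. Hnrnpa2b1, which also sorts RNA for transport, was at 1224, 1215, 1216 and 1183 CPM in the Control KO libraries and 514, 537, 508 and 545 CPM in the Carm1 KO libraries (log2 fold change -1.20, SE 0.023, adjusted p = 2.9e-36). Hnrnpa1, a splicing repressor that binds exonic and intronic silencers, was at 698, 711, 706 and 693 CPM in the Control KO libraries and 369.7, 365, 362 and 375 CPM in the Carm1 KO libraries (log2 fold change -0.93, SE 0.021, adjusted p = 2.1e-33). Processed pseudogenes of Hnrnpa1 exist in the mouse genome, and the 2 annotated by name held 16 and 42 counts over all libraries. Hnrnpa0, an intronless gene, was at 667, 694, 695 and 725 CPM in the Control KO libraries and 510.5, 459, 458 and 430.5 CPM in the Carm1 KO libraries (log2 fold change -0.58, SE 0.052, adjusted p = 1.1e-05), with a Carm1 KO spread of 7.19% (SD over mean). With the exon lengths in the files Hnrnpa1 had the highest per-length level of the 33 genes in both groups, 366 ± 4.20 and 192 ± 2.95 RPKM.

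Hnrnpm, which binds uridine- and guanine-rich RNA, was at 585, 596, 586 and 608 CPM in the Control KO libraries and 247, 244, 248 and 256 CPM in the Carm1 KO libraries (log2 fold change -1.25, SE 0.022, adjusted p = 3.1e-37). In Hnrnpm 24.9% of exon sequence overlaps a neighbouring gene on the same strand. Hnrnpf, which binds guanine tracts, fell 2.06-fold, from 563 ± 6.69 to 273 ± 4.77 CPM, and 26.45% of its exon sequence overlaps other genes. Hnrnph2, its relative on chromosome X, was at 138, 135, 134 and 133 CPM in the Control KO libraries and 75.01, 77.5, 77.6 and 75.5 CPM in the Carm1 KO libraries (log2 fold change -0.82, SE 0.024, adjusted p = 2.4e-29). Hnrnpll, the regulator of CD45 exon skipping, was at 80.2, 81.2, 79.8 and 80.5 CPM in the Control KO libraries and 39.9, 41.2, 38.8 and 42.9 CPM in the Carm1 KO libraries (log2 fold change -0.98, SE 0.029, adjusted p = 1.7e-29). Its paralog Hnrnpl, which binds CA repeats, fell 1.73-fold, from 517 ± 7.34 to 299 ± 3.74 CPM. Neither gene overlapped between the groups.

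Hnrnpu, the scaffold attachment factor that organises nuclear RNA and chromatin, was at 1123, 1110.0, 1105 and 1111 CPM in the Control KO libraries and 569, 598, 597 and 608 CPM in the Carm1 KO libraries (log2 fold change -0.91, SE 0.022, adjusted p = 1.1e-32). Hnrnpdl, a paralog of Hnrnpd, was at 320.5, 321, 312 and 315 CPM in the Control KO libraries and 171, 174, 178 and 179.7 CPM in the Carm1 KO libraries (log2 fold change -0.85, SE 0.022, adjusted p = 1.9e-31). Hnrnpr, a relative of Syncrip, fell 1.73-fold, from 154 ± 1.29 to 88.9 ± 2.31 CPM. Smaller falls were found for Hnrnpk, a poly(C)-binding protein, and Hnrnpul2, a relative of Hnrnpu. Hnrnpk went from 771 ± 4.61 to 548 ± 11.8 CPM (log2 fold change -0.49, SE 0.021, adjusted p = 1.2e-23) and Hnrnpul2 from 375 ± 6.38 to 297 ± 7.56 CPM (log2 fold change -0.34, SE 0.022, adjusted p = 2.8e-17). Both falls were small beside those of Hnrnpd and Hnrnpa3 but larger than the spread between libraries.

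Hnrnpc, Hnrnph1 and Hnrnpul1 were near the level of scaling itself. Hnrnph1, which binds guanine tracts, was at 217, 214, 213 and 215 CPM in the Control KO libraries and 198, 209.5, 202 and 208 CPM in the Carm1 KO libraries (log2 fold change -0.07, SE 0.023, adjusted p = 0.0044). Its direction turned with upper-quartile factors (log2 fold change 0.15), with library totals alone (0.090) and with a stricter filter on low counts (0.023). Hnrnpc, which binds uridine tracts and measures the length of nascent RNA, was at 448, 448, 449 and 448 CPM in the Control KO libraries and 476, 467, 459 and 469 CPM in the Carm1 KO libraries (log2 fold change 0.06, SE 0.021, adjusted p = 0.0074). Its call was lost without Control KO replicates 1, 3 or 4 (adjusted p = 0.051, 0.063 and 0.058) and with no filter on low counts (0.24), while the 17 alternatives ranged from 3.0e-15 to 1.0. Hnrnpul1, which acts in the DNA damage response, was at 343, 344, 338 and 348 CPM in the Control KO libraries and 363, 372, 379 and 370.2 CPM in the Carm1 KO libraries (log2 fold change 0.11, SE 0.021, adjusted p = 9.2e-06). These 3 log2 fold changes are smaller in size than the shift of 0.215 that upper-quartile factors gave over all genes.

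Hnrnph3 showed the clearest rise among hnRNP genes. It encodes a smaller relative of Hnrnph1 and was at 29.5, 31.0, 31.1 and 30.1 CPM in the Control KO libraries and 45.8, 45.6, 46.0 and 48.5 CPM in the Carm1 KO libraries, a 1.53-fold rise (log2 fold change 0.61, SE 0.033, adjusted p = 3.9e-20). On the per-length scale it was 30th of the 33 genes in the Control KO and 27th in the Carm1 KO libraries. The share of Hnrnpc in the summed per-length hnRNP level went from 6.29% ± 0.0420 to 12.4% ± 0.0570, while its own CPM moved 1.04-fold. With coding transcript lengths the Hnrnpc share was 3.74% and 7.92%. Hnrnpab went from 13.2% ± 0.287 to 6.31% ± 0.304, and Hnrnpa1 held 14.7% ± 0.177 and 14.5% ± 0.186. The order of hnRNP genes by level depends on the length used: with exon lengths Hnrnpa1 led the Control KO group, and with coding transcript lengths Hnrnpa3 did (16.3%). In the Carm1 KO group Hnrnpa1 led with exon lengths and Hnrnpa2b1 with coding transcript lengths (13.6%, beside 9.03% for Hnrnpa1).

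The balance between similar genes was compared next. The ratio of per-length counts of 2 similar genes was computed within each library for 15 pairs, so that the scaling between libraries drops out, and compared between the groups (exact permutation test, two-sided, n = 4 each, adjusted over the 15 pairs). In 13 of 15 pairs the groups did not overlap, each with an exact permutation p = 0.0286, the smallest that 4 against 4 allows, and adjusted p = 0.033. The levels of 83.4% of the 14970 genes tested did not overlap either, a share for single genes and not for ratios, so nothing particular to these pairs is read from the count. The Srsf5/Srsf6 ratio was 1.35, 1.36, 1.33 and 1.39 in the Control KO and 4.35, 4.49, 4.37 and 4.46 in the Carm1 KO libraries, a 3.25-fold change. Srsf5 was thus the higher of the pair in all 8 libraries, by far more in the Carm1 KO libraries. The Srsf10/Srsf12 ratio fell 3.45-fold, from 84.6 ± 10.9 to 24.4 ± 0.462, and rests on the few counts of Srsf12.

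The Hnrnpd/Hnrnpdl ratio was 0.923, 0.935, 0.973 and 1.00 in the Control KO and 0.429, 0.422, 0.401 and 0.402 in the Carm1 KO libraries. With exon lengths these paralogs stood near equal levels in the Control KO group, and Hnrnpdl was the higher one in every Carm1 KO library. With coding transcript lengths Hnrnpd held 5.3% and Hnrnpdl 2.42% of the summed hnRNP level in the Control KO group. In the Carm1 KO group they held 2.57% and 2.72%, so near equality was then in that group. The Hnrnpa3/Hnrnpa2b1 ratio was 1.28, 1.30, 1.28 and 1.32 in the Control KO and 0.831, 0.815, 0.816 and 0.802 in the Carm1 KO libraries, so that the order of these genes was reversed between the groups. The level of such a ratio depends on the lengths used, whereas its fold change does not. The Hnrnph1/Hnrnpf ratio rose 1.96-fold and the Hnrnph1/Hnrnph2 ratio 1.68-fold. Smaller changes were found for Hnrnpr/Syncrip (1.44-fold higher), Tra2a/Tra2b (1.39-fold), Hnrnpul1/Hnrnpul2 (1.36-fold), Srsf3/Srsf7 (1.32-fold), Hnrnpa1/Hnrnpa2b1 (1.21-fold), Srsf4/Srsf6 (1.20-fold) and Hnrnpl/Hnrnpll (1.14-fold).

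The groups overlapped for the other 2 pairs. The Srsf1/Srsf9 ratio was 1.69 ± 0.113 and 1.62 ± 0.132 (exact permutation p = 0.46, adjusted p = 0.46), and the Hnrnpd/Hnrnpab ratio was 0.193 ± 0.00204 and 0.182 ± 0.00842 (exact permutation p = 0.086, adjusted p = 0.092). Without Carm1 KO replicate 4 the groups did not overlap for 14 of the 15 pairs. A p that misses the threshold does not show that such genes moved alike.

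**Figure D4:**
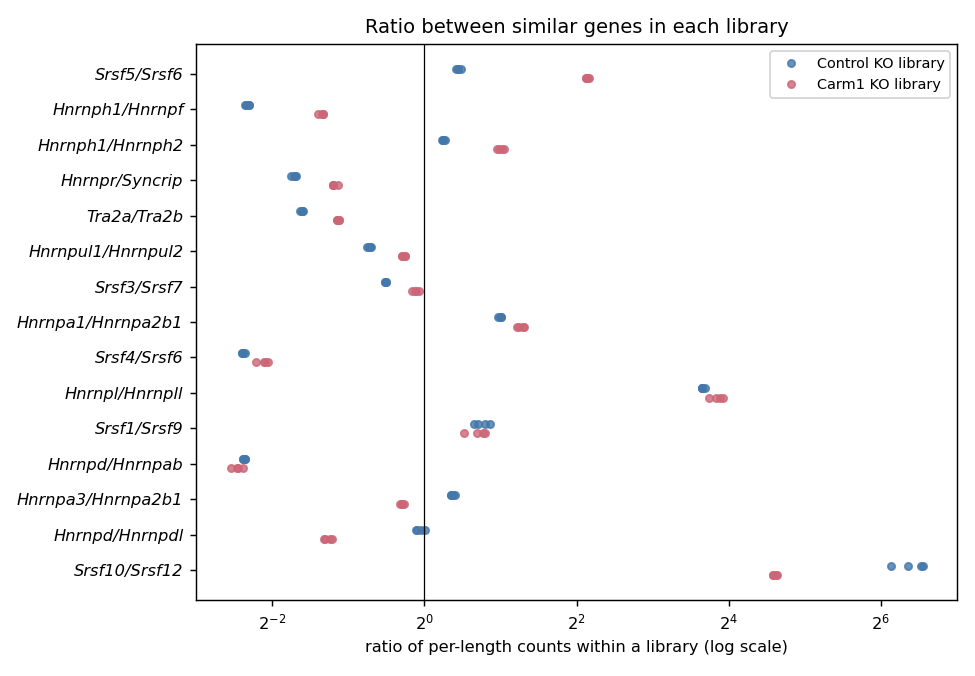
Ratio of per-length counts of 2 similar genes in each library (x axis, log scale, 1 point per library) for 15 pairs, ordered by the change between groups. The Control KO and Carm1 KO points stand apart in 13 pairs and overlap for Srsf1/Srsf9 and Hnrnpd/Hnrnpab.

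Some of the 33 genes lie on the same chromosome within 441 kb of each other. Hnrnpd and Hnrnpdl lie 54.6 kb apart on chromosome 5 and fell 4.18-fold and 1.80-fold. Srsf7 and Hnrnpll lie 138 kb apart on chromosome 17 and fell 4.43-fold and 1.98-fold. Hnrnpa0 and Hnrnpk lie 263 kb apart on chromosome 13 and fell 1.497-fold and 1.41-fold, and Hnrnpr and Srsf10 lie 441 kb apart on chromosome 4 and fell 1.73-fold and 2.28-fold. Differences in fold between these genes were not tested.

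Other genes of splicing control moved in both directions, and the lists were not tested against each other. Of 15 hnRNP proteins under other names 10 fell, 4 rose and 1 did not pass (median -0.68), beside 43.2% lower and 44.5% higher among all genes tested. Ptbp1, the polypyrimidine tract-binding splicing repressor, fell from 641 ± 3.58 to 249 ± 2.35 CPM (log2 fold change -1.36, SE 0.021, adjusted p = 2.4e-39), Syncrip, also called hnRNP Q, from 280.2 ± 6.98 to 112 ± 2.08 CPM, and Pcbp4, a poly(C)-binding protein, rose from 13.5 ± 0.563 to 34.0 ± 1.63 CPM. All 4 splicing proteins listed as reported CARM1 substrates fell (median -1.20), beside 43.2% lower among all genes tested. Among genes with a mean of at least 50 CPM 60.4% were lower, and the list of 4 was not tested as a set. Sf3b4 fell from 119.9 ± 3.55 to 41.7 ± 1.22 CPM, Snrpb from 388 ± 7.91 to 155 ± 5.24 CPM and Snrpc 1.98-fold. Methylation of these proteins was not measured.

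Kinases of SR proteins and import receptors moved in both directions. Of 10 tested genes for SR protein kinases and nuclear import, 6 rose and 4 fell (median 0.32), beside 44.5% higher and 43.2% lower among all genes tested, and Srpk3 was too low to test. Clk1, a kinase that releases SR proteins from nuclear speckles, rose from 92.5 ± 2.03 to 274 ± 2.98 CPM (log2 fold change 1.57, SE 0.023, adjusted p = 4.3e-40), and its relative Clk4 from 38.1 ± 0.945 to 76.2 ± 1.32 CPM. Tnpo1, the import receptor of hnRNP A1, fell from 228 ± 5.85 to 121 ± 5.13 CPM. All 6 genes that rose are kinases of the Srpk and Clk families. The 4 that fell are the import receptors Tnpo1 and Tnpo3 and the kinases Dyrk1a (log2 fold change -0.35) and Prpf4b (-0.13), so the kinases moved in both directions.

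Of 25 SR-related proteins 14 fell, 8 rose and 3 did not pass (median -0.23), beside 43.2% lower and 44.5% higher among all genes tested. With upper-quartile factors 11 of the 25 fell and 12 rose, so the lean to lower rests on the scaling. Ccnl2, a cyclin found in nuclear speckles, rose from 139 ± 1.24 to 375 ± 3.20 CPM, while U2af2 and U2af1, the subunits that recognise the 3′ splice site, fell 2.61-fold and 2.15-fold. Of 27 other alternative splicing regulators 20 were tested, of which 11 fell, 7 rose and 2 did not pass (median -0.09). Among all genes tested 43.2% were lower and 44.5% higher. Most of these 20 had a mean of at least 50 CPM, where 60.4% of genes were lower, against 55% of the 20. With upper-quartile factors 8 of these 20 fell and 11 rose. Mbnl3 and Elavl1, a muscleblind-like protein and an AU-rich element-binding protein, fell 2.63-fold and 2.49-fold, and Celf2, a regulator of splicing in T cells, rose from 162 ± 5.56 to 364 ± 12.8 CPM (log2 fold change 1.17, SE 0.026, adjusted p = 4.5e-31). Of 12 nonsense-mediated decay factors 6 fell and 5 rose (median -0.08), shares near those of all genes tested (43.2% and 44.5%), and with upper-quartile factors 5 fell and 6 rose. Smg5 fell 2.50-fold and Upf3b rose 1.93-fold.

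**Figure D5:**
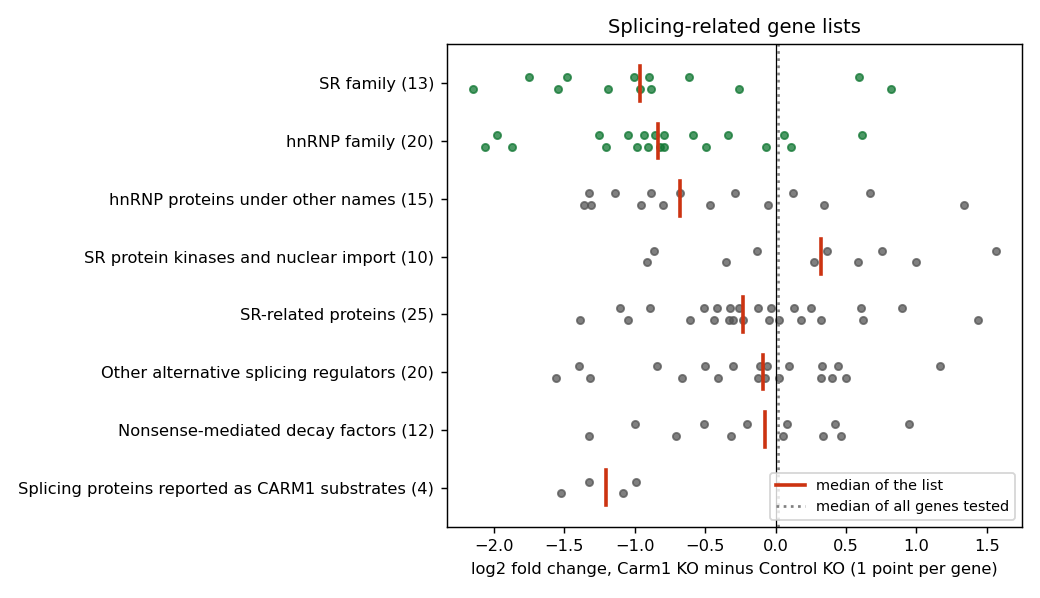
Log2 fold change (x axis, Carm1 KO minus Control KO, 1 point per tested gene) for the SR and hnRNP families and 6 lists of other splicing-related genes, with each list's median as a red bar and the median of all genes tested as a dotted line. The family medians lie at -0.96 and -0.84, and the list of SR protein kinases and nuclear import at 0.32.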

How the data were processed

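RNA of 8 samples was made into mRNA libraries with a TruSeq kit and read as pairs of 150 bp, per the labels. Each deposited file lists whole-number counts of genes, which the authors quantified with RSEM, per the labels' extract protocol, on mm10, per the submitters' processing notes. RSEM estimates are often fractional, and the files have another column layout, so the step that gave whole numbers is unknown. Aligner, annotation release and strand setting were not given in the sources used here. Symbols and biotypes came from GENCODE M21 (49056 of 49315 identifiers matched).

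Genes were kept by filterByExpr (14970), scaled with TMM factors (0.938 to 1.07) and tested with edgeR 4.0.16 in R 4.3.3 (quasi-likelihood F test, robust option) with Benjamini-Hochberg adjustment over all genes at 0.05. The SE is the log2 fold change divided by the square root of F. RPKM used the exon length in the files. Ratios of similar genes used a pseudocount of 0.5 and exact permutation tests (scipy 1.17.1). The members, lists and pairs were chosen with earlier results of these data known. Every member may be named. From each other list the text names up to 3 genes with the largest fold change that passed at a mean of at least 5 CPM, and from marker lists the 2 most abundant over all libraries. Exceptions, chosen after their values were seen, are the per-library values of Hnrnpa0, Hnrnpc, Hnrnph3 and Hnrnpu. Further exceptions of this kind are the names of Snrpc, Srpk3, Tnpo3, Dyrk1a, Prpf4b, Cd2, Lck, Cd79a, Igkc, Ncr1, Klrb1c and Cd4. So are the names of the marker genes that were at 0 or too low to test.

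Replicates differed by more than sampling noise (chi-square per degree of freedom 1.45 to 13.5 within groups, 418 to 447.5 between). On simulated counts for this comparison, with 14970 genes of which 50 were changed by each fold, the edgeR step recovered 28, 40, 46 and 49 of those changed 1.25-, 1.5-, 2- and 4-fold and called 10 of 14770 unchanged genes. The simulation changed 200 genes, whereas 87.7% of genes were called in the data. Scaling and adjustment depend on that share, so these rates need not hold for the data. Scaling was varied (RLE, upper-quartile, library totals alone), as were the filter (none, or 5 CPM in 4 libraries), the tool (DESeq2 1.42.0, or voom in limma 3.58.1), the null (a 1.5-fold change), the design (a replicate block) and the libraries, each left out in turn. For ratios the pseudocount (5) and the length correction (none) were varied. Some listed genes are not reported here.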

Additional observations from a re-analysis of the deposited data

Results flagged for a closer look

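In the groups of 4 libraries, 174 sets of values were checked for a library far from the other 3, and 6 were flagged, where chance flags about 1 in 20. Hnrnpul2 in Carm1 KO replicate 1 was at 286 CPM beside 300.2 to 302 CPM, and its share of the summed per-length hnRNP level there was 3.74% beside 3.98% to 4.03%. Hnrnph3 in Carm1 KO replicate 4 was at 48.5 CPM beside 45.6 to 46.0 CPM. The Hnrnpr/Syncrip ratio in Carm1 KO replicate 3 was 0.453 beside 0.433 to 0.436. The Hnrnpa1 share in Carm1 KO replicate 4 was 14.8% beside 14.4% to 14.5%, and the Hnrnpu share in Control KO replicate 1 was 3.93% beside 3.83%. All of these lie within their own group's side of the gap between groups, except the Hnrnpa1 and Hnrnpu shares, whose groups overlap.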

How the results depend on the processing

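The counts of 28 lower and 5 higher SR and hnRNP genes were 26 to 28 and 4 to 6 under all alternatives but the test against a 1.5-fold change, which called 22 lower and 1 higher (Srsf5). Over all genes that test called 3992 higher and 3444 lower, against 6667 and 6468. For the SR and hnRNP genes the median log2 fold change, -0.90, became -0.68 with upper-quartile factors and -0.74 with library totals alone. With each library left out in turn it ran from -0.92 to -0.88, with 28 lower and 4 or 5 higher genes, and the pairs without overlap numbered 13 or 14. Of 560 values of single genes under alternatives, 542 kept direction and call, 15 lost the call and 3 changed direction. The 3 were all Hnrnph1, at 0.15 with upper-quartile factors, 0.090 with library totals alone and 0.023 with the stricter filter. For 23 of the 33 genes nothing changed under any alternative, and 7 more lost the call in the test against a 1.5-fold change alone. Other alternative splicing regulators had 7 higher genes, and 11 with upper-quartile factors. With coding transcript lengths the Carm1 KO share of Srsf5 was 44.8% in place of 38.0%, that of Srsf7 3.91% in place of 6.45%, that of Hnrnpc 7.92% in place of 12.4% and that of Hnrnpab 4.90% in place of 6.31%. The cause was not tested. The replicate numbers did not pair the libraries, since deviations of same-numbered libraries correlated at -0.316 to -0.108. With the replicate number as a block 28 genes were lower and 5 higher, with a median of -0.90. The stricter filter removed Srsf12. Depth limits Srsf12, at 402 counts over all libraries.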
